A study of Mus musculus with 6 samples.

Results

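The 3 control libraries of a study of the kinase CK2 in CD8+ T cells describe which genes day 7 effector cells of the OT-I line transcribed, in what order of abundance, and how far the libraries differed from each other. They were chosen by their label, the control genotype, and are 3 of the 6 libraries of the series. The other libraries are not used here, and no genotype is compared. The donor cells were CD45.2 OT-I CK2α fl/fl cells: CD8+ T cells whose transgenic T cell receptor recognises an ovalbumin peptide, and whose CK2α gene carries loxP sites but which carry no Cre. They were transferred into CD45.1 B6 mice, which were then infected for 7 days with Listeria monocytogenes-OVA, a bacterium engineered to make ovalbumin, and CD45.2 CD8+ cells were recovered from the spleen. The labels do not say whether the libraries came from separate host mice, so the spread between them may be technical in part. A single receptor transgene, a floxed allele and an intact host limit these cells as a model of a polyclonal response.

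An infected host carries its CD8+ T cells through a burst of division to a peak about a week after infection. At that peak most antigen-specific cells are short-lived effectors, which store granzymes and perforin in cytotoxic granules, secrete chemokines and interferon gamma, and carry Klrg1 and Cx3cr1 on their surface under the transcription factor T-bet (gene Tbx21). A smaller part keeps Il7r and Tcf7 and gives rise to memory cells. A bulk library averages over all of these cells, so fewer cells of a type and less RNA per cell cannot be told apart in any value given here.

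Values are the deposited normalized counts, in which each library's reads per gene were divided by 1 factor. The reads behind them numbered 18226879, 19480791 and 22931296 in control libraries 1, 2 and 3, a depth counted over the 13675 genes of the table. Genes were ranked by the mean of the 3 libraries, with rank 1 the highest. A normalized count grows with the length of the transcript, so ranks by count favour long genes, and a rank per kilobase of exon is given beside them where stated. The median gene had a mean of 389 normalized counts, the 90th percentile lay at 3042 and the 99th at 15638. At a level near the median, the error from counting reads alone was about 4.84% of the value (median over genes), and it covers counting error only. The libraries are not alike: library 1 holds genes of skin epithelium that the other 2 nearly lack, and library 2 differs from both in genes of cell division. Values without one of them are given where they changed a result.

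The counts were concentrated in few genes. The 10 most abundant genes of each library held 5.71% ± 0.12 of its normalized counts (SD, n = 3), and the 100 most abundant held 19.6% ± 0.28. A majority of all counts lay in the 791 most abundant genes of library 1, the 763 of library 2 and the 767 of library 3. Protein-coding genes were 87.3% of the listed genes and held 98.6% of the counts. The long intergenic RNAs came next with 0.421% of the counts, led by Malat1.

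**Figure D1:**
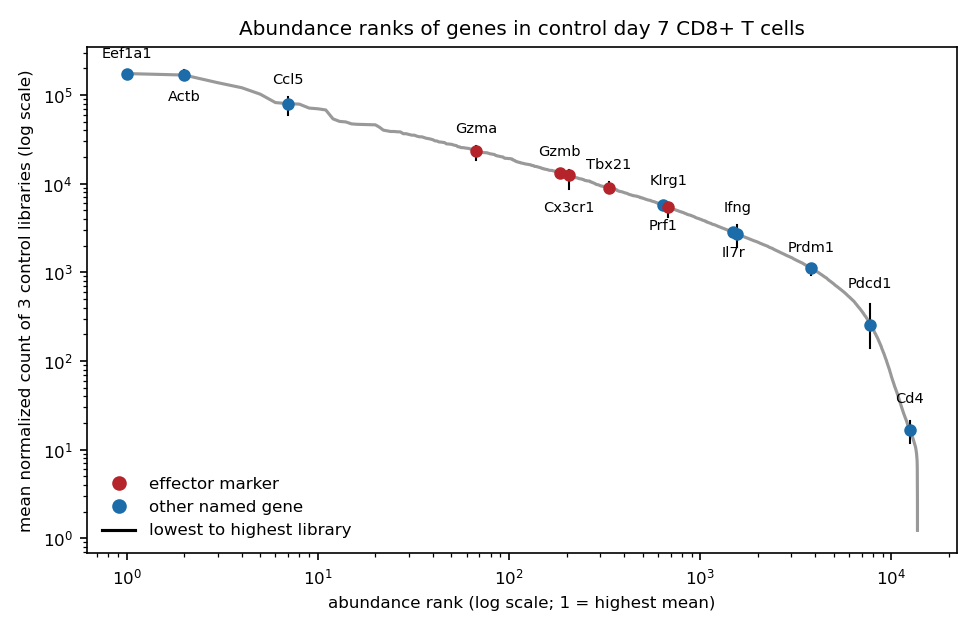
Mean normalized count (log scale) against abundance rank (log scale) for the 13675 listed genes, with 5 effector markers in red, other named genes in blue, and black bars from the lowest to the highest of the 3 control libraries. Gzma at rank 67 and Klrg1 at rank 682 bound the markers, and Cd4 lies near the end of the curve at rank 12439.

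The 5 effector markers all lay in the top 10% of listed genes by normalized count (the background share is by definition 10%), and the data did not go against the label of effector cells. Gzma, which encodes the tryptase granzyme A (GRCm38 chr13:113093825-113100981, - strand), had 24831, 18534 and 26554 normalized counts in libraries 1, 2 and 3 and ranked 67 by count and 19 per kilobase. Gzmb, the gene of granzyme B, a protease that triggers death of the target cell (chr14:56258838-56262260, - strand), had 12503, 14635 and 12684, ranking 184 by count and 71 per kilobase. Cx3cr1, the fractalkine receptor (chr9:119901616-120069879, - strand), had 14040.3, 8789.9 and 14302 and ranked 205 and 299 on the same scales. Library 2 was the lowest for Gzma and Cx3cr1 and the highest for Gzmb. Tbx21, the gene of T-bet (chr11:97098071-97115331, - strand), had 8809, 7839.9 and 10332 and ranked 333 by count and 228 per kilobase. Klrg1, an inhibitory lectin-like receptor of terminal effector cells (chr6:122270596-122282882, - strand), had 5846, 4239 and 6093 and ranked 682 and 215. For these last 2 genes library 2 was again the lowest. The coefficient of variation, the SD over the mean of the 3 libraries, was 8.9% for Gzmb and between 14% and 25.1% for the other 4 markers. Without library 2 the ranks by count became 55 for Gzma, 161 for Cx3cr1, 300 for Tbx21 and 606 for Klrg1. Without library 1 they became 76, 235, 335 and 725.

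RefSeq promoters (GRCm38.p6, 250 bases before to 50 after the start) were matched for 4 of the 5 markers, and they are shown because the markers, all highly transcribed, differ in promoter type. Capitals mark CpG, and each sequence is written 5′ to 3′ on the gene's strand, which is the - strand for all 4.
Gzma, chr13:113100932-113101231: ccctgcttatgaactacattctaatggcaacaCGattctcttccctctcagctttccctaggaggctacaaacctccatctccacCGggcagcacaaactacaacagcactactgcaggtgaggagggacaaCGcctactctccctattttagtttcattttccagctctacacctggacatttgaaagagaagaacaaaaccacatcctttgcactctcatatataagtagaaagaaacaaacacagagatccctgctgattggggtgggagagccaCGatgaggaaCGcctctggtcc
Gzmb, chr14:56262285-56262584: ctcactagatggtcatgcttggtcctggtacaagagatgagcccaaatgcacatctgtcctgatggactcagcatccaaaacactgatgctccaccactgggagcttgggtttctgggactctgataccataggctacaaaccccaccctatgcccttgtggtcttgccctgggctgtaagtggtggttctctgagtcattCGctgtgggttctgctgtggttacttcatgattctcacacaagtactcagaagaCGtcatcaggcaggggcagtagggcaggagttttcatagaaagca
Cx3cr1, chr9:120068247-120068546: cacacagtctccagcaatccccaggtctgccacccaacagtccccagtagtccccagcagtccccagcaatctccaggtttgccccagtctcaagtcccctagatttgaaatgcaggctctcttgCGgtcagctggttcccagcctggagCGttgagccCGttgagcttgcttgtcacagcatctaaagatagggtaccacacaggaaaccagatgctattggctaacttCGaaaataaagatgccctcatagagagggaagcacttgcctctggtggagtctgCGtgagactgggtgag
Tbx21, chr11:97115282-97115581: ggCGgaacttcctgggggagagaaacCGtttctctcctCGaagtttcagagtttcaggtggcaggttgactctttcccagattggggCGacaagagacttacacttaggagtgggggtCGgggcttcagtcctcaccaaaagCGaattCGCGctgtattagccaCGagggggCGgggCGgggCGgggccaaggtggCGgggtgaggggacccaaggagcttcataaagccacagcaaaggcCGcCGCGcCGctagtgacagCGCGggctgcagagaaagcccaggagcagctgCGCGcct

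The Tbx21 promoter held 21 CpG, the median of the 7894 listed genes with a single RefSeq start, while those of Gzma and Cx3cr1 held 5 each and that of Gzmb held 2. Of those 7894 promoters 7.92% held fewer than 5 CpG. The motif TATAA, searched on the gene's strand between 35 and 25 bases before the start, was found in the Gzma promoter at 27 bases before the start and in none of the other 3. It was present in 1.90% of the 7894 promoters. Among the 100 genes with the highest level per kilobase, 46 had a single start and 7 of these (15.2%) held it. By normalized count, 5 of the 56 promoters among the 100 highest genes (8.93%) held it. With these promoters divided into 10 equal groups by mean normalized count, the share was 3.54% in the lowest group, 0.634% in group 8 and 3.29% in the highest. Median CpG was 14 in the lowest group and 24 in the highest. The window was chosen after the positions of TATAA in all promoters had been seen, and these shares are descriptions without a test. The Gzmb promoter interval lies wholly off the gene span given above, and the Cx3cr1 interval lies wholly inside its span. For these genes RefSeq and the gene annotation thus place the start differently. Their CpG counts and the missing motif hold for the RefSeq start only.

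Translation, actin and antigen presentation genes stood among the highest, beside a mitochondrial gene, a scaffold gene and a chemokine. Eef1a1, the elongation factor that brings aminoacyl-tRNA to the ribosome, was first with 162316, 191343 and 169899 normalized counts in libraries 1, 2 and 3. Actb, the gene of beta-actin, followed with 151677, 190243 and 161868. The mitochondrial gene mt-Co1, a subunit of cytochrome c oxidase, ranked 3 with 123566, 156701 and 132395. In each of these 3 genes library 2 was the highest and library 1 the lowest. Eef2, the factor that moves the ribosome along the message, ranked 4, and Ahnak, a very large scaffold protein, ranked 5 by count but 160 per kilobase. The classical MHC class I heavy chains H2-K1 and H2-D1 ranked 6 and 9, and their light chain B2m ranked 25 by count and 6 per kilobase. H2-K1, H2-D1 and the H2-Q genes are close copies of each other, so the division of counts among them is uncertain. Tmsb4x, the actin monomer binding thymosin beta 4, ranked 8 on counts.

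Ccl5, a chemokine that effector CD8+ T cells store and release on contact with antigen (chr11:83525778-83530518, - strand), ranked 7 by count and 2 per kilobase, just below mt-Co1. Its values were 86151, 59293 and 94005 normalized counts, a mean of 79816 ± 18202 (SD, n = 3). Libraries 1 and 3 lay close together and library 2 lay below both. Its coefficient of variation of 22.8% was the widest among the 30 most abundant genes, whose others lay between 2.97% (Itgb1) and 19% (Actg1). Of these 30 genes 25 were also in the top 30 of each library taken alone. The 10 highest genes of each library had 8 in common to all 3 libraries, the 100 highest had 91 and the 1000 highest had 926.

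**Figure D2:**
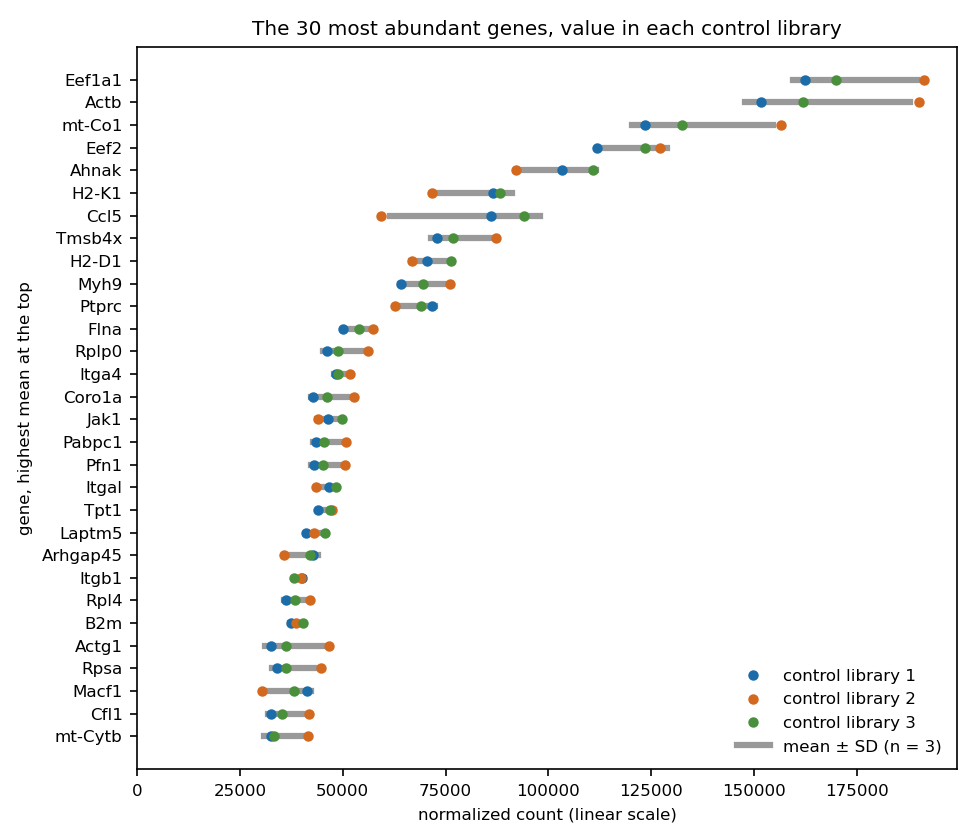
Normalized count (linear scale) in each control library for the 30 genes with the highest mean, ordered by mean, with a grey bar for the mean ± SD (n = 3). Ccl5 has the widest bar relative to its mean (22.8%), with library 2 at 59293.

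Per kilobase the order changed. The 100 highest genes by count and the 100 highest per kilobase had 53 in common. Their median exon length was 3172.5 bases by count and 1540 bases per kilobase, against 4148 bases over all matched genes. Long genes such as Macf1, a cytoskeletal crosslinker with 31402 exon bases, dropped to rank 761 per kilobase, having ranked 28 by count. Short ribosomal protein genes moved up, among them Rplp1, which ranked 81 by count and 7 per kilobase. The 20 highest levels per kilobase also included 3 very short features, Trbd1 with 12 bases, the miRNA gene Gm23935 with 57 and the pseudogene Gm10736 with 78. A read is longer than the 12 bases of Trbd1, and reads over such short features can overlap their neighbours, so a level per kilobase is not a usable measure for these 3.

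Lists of genes were then placed in the ranking, each described by how many members lay in the top 10% of genes (background 10%) and by its median rank by normalized count. The T cell receptor complex and coreceptors had 22 of 22 members in the top 10%. Ptprc, which encodes the CD45 phosphatase, had 71635, 62707 and 69130 normalized counts and ranked 11 by count and 222 per kilobase. The coreceptor genes Cd8b1 and Cd8a ranked 42 and 45 by count, and 21 and 94 per kilobase. Cd3e, a signalling chain of the receptor, had one of the narrowest spreads, with 10128, 10081 and 10174 normalized counts and a coefficient of variation of 0.461%. The kinases Lck and Fyn, which phosphorylate the receptor chains, ranked 49 and 89 by count, and 69 and 177 per kilobase. Trac, Trbc1 and Trbc2, the constant regions of the receptor, ranked 99, 87 and 41 per kilobase. Trbc1 and Trbc2 are near-identical, so the division between them is uncertain.

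The transgenic receptor of OT-I cells joins a beta chain of the Trbv12 family to an alpha chain of the Trav14 family. Trbv12-1 had 1427, 1836 and 1419 normalized counts, which was 98.7% ± 0.47 (SD, n = 3) of the counts of the Trbv genes in the table. The other one listed, Trbv13-2, had 19.4, 13.9 and 24.3. Trbv genes other than these are not analysed here. The alpha chain genes gave a different picture: 30 Trav genes were listed, led by Trav21-dv12 with 221, 249 and 274 normalized counts, 19.3% ± 1.6 of the Trav total. Trav14-3 had 49.1, 36.7 and 49.4 and Trav14-1 had 26.6, 19.8 and 20.1. The Trav14 genes are near-identical copies of each other, so their levels, and with them the order of the Trav genes, are uncertain here.

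Among the effector genes, the cytotoxic granule list had 19 of its 25 genes in the table, 10 of them in the top 10%. After Gzma the highest by count were Ctsd, a lysosomal protease (rank 103), and Nkg7, a granule membrane protein (rank 119), while per kilobase Nkg7 at rank 31 lay above Ctsd at rank 93. Nkg7 had 16690.5, 16840 and 17208 normalized counts, with a coefficient of variation of 1.57%. The gene of the pore-forming protein perforin, Prf1, had 5975, 5330.1 and 5985 and ranked 641 by count and 381 per kilobase. Gzmk, a granzyme of less differentiated cells, had 2077, 2600.1 and 1912 and ranked 1994 by count. None of the 19 spread 2-fold or more between the lowest and highest library, against 9.86% of all genes with a mean of at least 10. Their lowest mean was 682. At such levels this spread was rare among all genes, with 2.32% from 300 to 1000, 0.437% from 1000 to 3000 and 0.633% from 3000 to 10000. The absence therefore does not set the granule genes apart.

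The list of terminal effector genes had 21 of 26 members in the top 10% and a median rank of 496 by count. The memory precursor and naive-like list had 12 of 26 there and a median rank of 1459. Per kilobase the median member lay at percentile 98.2 of all genes in the terminal effector list and at 80.7 in the memory precursor list. The terminal effector list includes Itgal, the alpha chain of the integrin LFA-1, which ranked 19, and S1pr5, a receptor that guides effector cells in the circulation, which ranked 340. In the memory precursor list Ly6c2, Klf2 and Tcf7 ranked 92, 154 and 350 by count, of which Klf2 and Tcf7 encode transcription factors of quiescent and of stem-like T cells. Tcf7 had 7958, 10104 and 8166 normalized counts, and per kilobase it ranked 256, against 228 for Tbx21. Il7r, the IL-7 receptor chain of memory precursors, had 2748, 2779 and 2929.7 and ranked 1491 by count.

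Of the transcription factor genes of CD8+ T cell differentiation, 19 of 38 lay in the top 10% by count. Ets1 led with 33511, 36437 and 35650.2 normalized counts at rank 32, followed by the Ikaros family genes Ikzf3 (rank 136) and Ikzf1 (rank 153). Per kilobase these 3 ranked 200, 471 and 334. Eomes, the T-box relative of T-bet, had 2898, 4196 and 2751 and ranked 1249. Prdm1, the gene of the repressor Blimp-1, had 1208, 927 and 1186 and ranked 3814, and Bcl6, its antagonist, had 259.6, 184 and 249 and ranked 8002. Tox, a factor of exhausted cells, ranked 7662 and Ikzf2 10334, at the low end of the list.

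Secreted products other than Ccl5 lay lower, with the median member of their list at percentile 65.6 by count and 83.3 per kilobase. The list had 4 of 17 listed members in the top 10%. Ifng, the gene of interferon gamma, had 2795, 1953 and 3403 normalized counts and ranked 1565 by count and 399 per kilobase. Ccl4, a chemokine induced by receptor signals, had 1226, 734 and 1642 and ranked 3571. Tnf had 124, 173 and 191 and ranked 8653. Of the 17 members 12 were highest in library 3, against 29.4% of all genes with a mean of at least 10.

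Receptors of cytokines and chemokines were spread over the ranking. The IL-18 receptor chain Il18rap ranked 117 by count with 20051, 12748 and 18401 normalized counts, and Il2rb, shared by the IL-2 and IL-15 receptors, ranked 238 with 10328, 13415 and 10229. Il2ra, the high-affinity IL-2 receptor chain of recently activated cells, had 309.7, 341 and 338 and ranked 7227. Among the chemokine and egress receptors 8 of 16 lay in the top 10%, led by Cx3cr1, S1pr4, Ccr2, S1pr5 and S1pr1 in order of count. Ccr7, which directs cells to lymph nodes, had 438, 677 and 378 and ranked 6186. Integrin genes Itga4, Itgal, Itgb1 and Itgb2 ranked 14, 19, 23 and 34 by count, and in the reverse order per kilobase, at 234, 113, 67 and 55. Itgae, the alpha chain of tissue-resident cells, ranked 9279 by count and 10063 per kilobase.

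Inhibitory and costimulatory receptor genes covered much of the ranking, with their median member at percentile 59.4 by count and 78.3 per kilobase. Of the 20 genes 6 lay in the top 10% by count and 6 under the median gene. The list was led by Vsir, Slamf7 and the costimulatory Cd27 and Cd28. Pdcd1, the gene of PD-1, had 441 in library 2, against 139 and 191 in libraries 1 and 3, and ranked 7755 by count. Ctla4 had 164 in library 2, against 87.9 and 75.4 in libraries 1 and 3. In both genes library 2 lay above the others, and 14 of the 20 members were highest there, against 39% of all genes. The 28 interferon-stimulated genes had 2 in the top 10% and a median rank of 4606, with Gbp7 the highest and Isg15 at 194, 286 and 235 normalized counts (rank 7943).

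Among the lists, ribosomal and actin genes held the largest shares of the counts, a quantity that also depends on the number of members. The 79 cytosolic ribosomal protein genes held 6.73% ± 0.312 of all normalized counts (SD, n = 3), with 78 of them in the top 10%, the exception being Rpl24 at rank 1482. The 32 actin cytoskeleton genes held 4.82% ± 0.359, with 31 in the top 10% and the exception Capg, an actin capping protein, at rank 6308. Translation elongation genes held 2.58% ± 0.122 and antigen presentation genes 1.73% ± 0.132. Glycolysis genes held 0.461% ± 0.0384, led by Gapdh with 11142, 16420.5 and 11866 normalized counts. The nuclear genes of the respiratory chain held 0.36% ± 0.0268, led by Atp5a1 and Atp5b. In the actin list 31 of 32 members were highest in library 2, as were 68 of 79 ribosomal and 21 of 22 respiratory chain members. Of all genes 39% were highest in library 2. Library 1 was the lowest for 30 of the actin, 73 of the ribosomal and 17 of the respiratory chain members, a share not computed over all genes. The list medians, as log2 of a library over the mean of the other 2, were -0.16, -0.13 and -0.15 in library 1. In library 2 they were 0.17, 0.13 and 0.20. No member of these lists lay 1.5-fold from the mean of the other 2 libraries. Of all genes 4.57% were higher by that fold in library 2 and 8.24% lower, most of them low: 261 of 614 and 155 of 1107 had a mean of at least 100. The absence is therefore not read as a trait of these lists.

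Genes of the mitochondrial chromosome held 1.24%, 1.48% and 1.24% of the counts in libraries 1, 2 and 3 over 22 listed genes. Their levels were very unequal. Against the values of mt-Co1 given above, its partner subunits mt-Co2 and mt-Co3 had 12.3, 16.9 and 25.1 and 37.8, 34.7 and 26, and mt-Atp6 had 16.4, 18.8 and 16.8. These genes have near-identical copies in nuclear DNA, so their levels are uncertain, and the part of such copies was not tested.

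**Figure D3:**
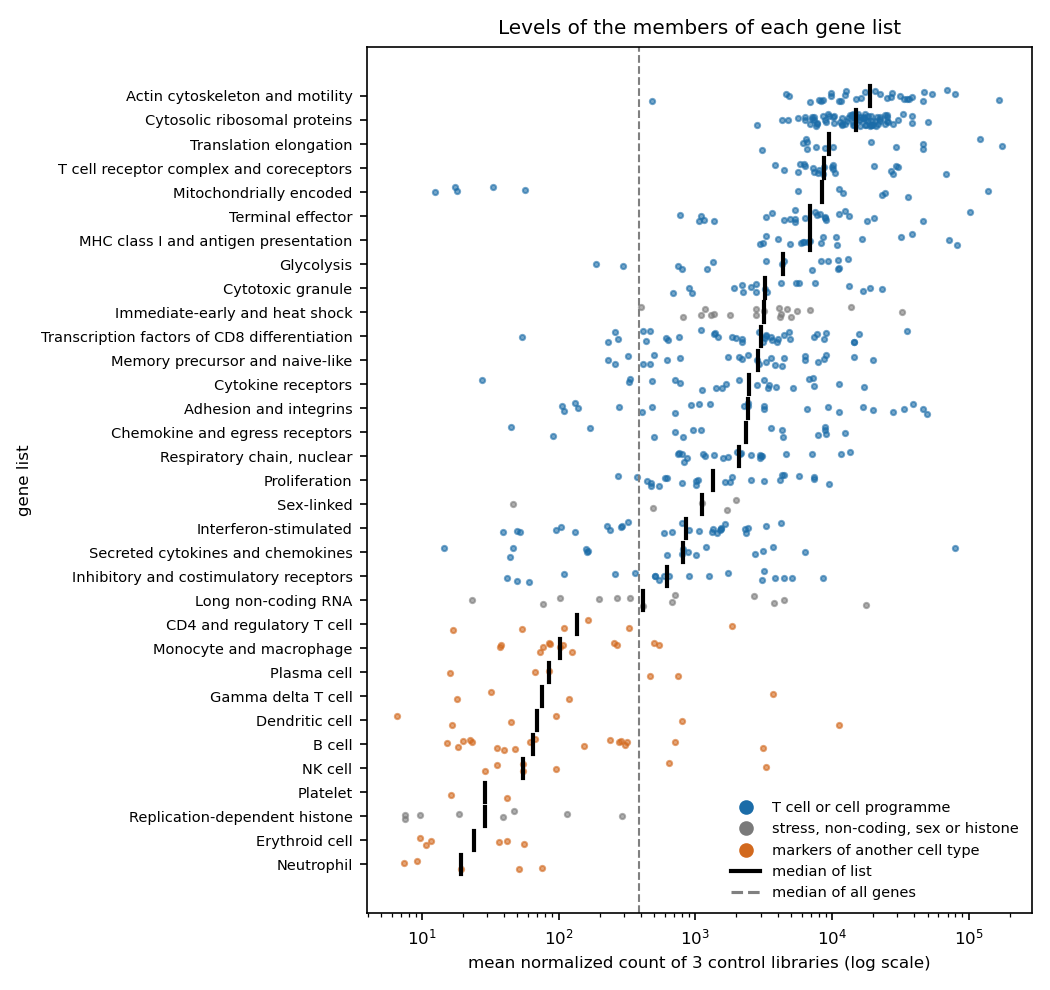
Mean normalized count (log scale) of each listed member of 33 gene lists, ordered by list median (black bar), with the median of all genes as a dashed line at 389. Members of T cell and cell programme lists are blue, stress, non-coding, sex-linked and histone lists grey, and markers of other cell types orange. The actin, ribosomal, translation elongation and T cell receptor lists lie at the top, and the marker lists of other cell types have medians below the median of all genes.

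In each list of markers of another cell type the median member lay below the median gene, and in several lists some members lay above it. All 18 B cell markers had a row, with summed normalized counts of 6083, 5734 and 5391 in libraries 1, 2 and 3, of which Ighm, the mu heavy chain gene, made up 2883, 3518 and 2903. The defining B cell gene Cd79a had 79.7, 57.5 and 49.4. The monocyte and macrophage list (13 of 14 with a row) summed to 2113, 2232 and 2527, led by Lyz2, and the neutrophil list (5 of 11) to 95.1, 148 and 244. Cd4 had 17.4, 11.9 and 21 normalized counts, and the CD4 and regulatory T cell list (6 of 7) was led by Zbtb7b. The NK cell list (7 of 8) was led by Eomes, which CD8+ T cells also transcribe, and the dendritic cell list (6 of 11) by Itgax and Bst2, of which the first encodes an integrin chain also made by effector CD8+ T cells. The gamma delta T cell list (4 of 8) was led by Trdc with 3737, 3507 and 3859, and its next marker, Cd163l1, had 114, 98.2 and 142. The plasma cell list (5 of 7) summed to 1456, 1417 and 1289, the erythroid list (6 of 10) to 212, 155 and 134 and the platelet list (2 of 6) to 53.1, 42.6 and 78.8. In the plasma cell list Sdc1, at least 4-fold above both other libraries in library 1, had 185 there, against 32.7 and 36.0 in libraries 2 and 3. No marker with a row was at 0 in any of the 3 libraries, and markers without a row are not analysed here.

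The spread between the libraries was larger than counting error for most genes. The 13438 genes whose mean reached 10 normalized counts had a median coefficient of variation of 9.69% (quartiles 5.43% and 19.0%, n = 3 libraries), against a median of 4.84% from counting reads alone. The SD exceeded the counting error in 78.6% of genes. Counting alone would also put part of the genes above it, and that part was not computed. Without library 2 the median was 5.73%. The spread fell with level, with a median of 29.5% among genes with a mean from 10 to 30 (counting 23.4%) and 7.53% from 300 to 1000 (counting 4.08%). It then levelled off, with 6.64% among the 281 genes with a mean of 10000 or more, where counting gives 0.783%. Each pair of libraries differed beyond counting error. The chi-square per degree of freedom over genes was 19.1 for libraries 1 and 2, 18.5 for libraries 2 and 3, and 5.32 for libraries 1 and 3, so none of the 3 is a second deposit of another.

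**Figure D4:**
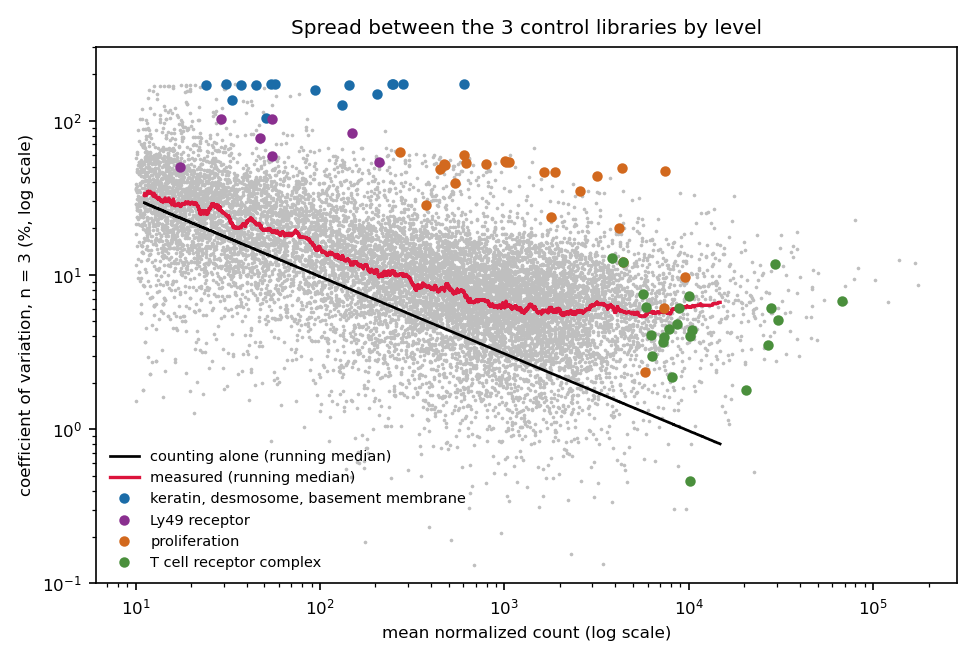
Coefficient of variation over the 3 control libraries (%, log scale) against mean normalized count (log scale) for 13438 genes, with the running median measured (red) and from counting alone (black). Genes of the T cell receptor complex (green) lie between 0.461% and 12.8%, while most proliferation genes (orange) and all 16 keratin, desmosome and basement membrane genes (blue) lie above the running median.

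Some genes were almost equal in the 3 libraries. Among genes with a mean of at least 1000 the narrowest was Ndufa3, a subunit of respiratory complex I, with 1304, 1305 and 1304 normalized counts and a coefficient of variation of 0.042%. Ifnar1, a chain of the type I interferon receptor, followed with 3442, 3442 and 3434. Rinl, Prkar1a (a regulatory subunit of protein kinase A) and Cd3e were also among the 20 narrowest. The spread of Ndufa3 lay below its own counting error of 2.7%, so 3 libraries cannot show that it varies less than other genes of its level.

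At the other end, 1325 genes (9.86%) had a highest library at least 2-fold above the lowest. Library 1 was the highest in 699 of them, library 2 in 391 and library 3 in 235. Leaving out library 1 gave 583 such genes and leaving out library 2 gave 507, with fewer pairs of libraries to differ. Low genes made up most of the count: 794 of the 1325 had a mean from 10 to 30 normalized counts, and 210 had a mean of at least 100. None of the 281 genes at 10000 or more was among them.

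Each library was next set against the mean of the other 2, and a gene was counted when it lay at least 1.5-fold away. Library 1 was higher in 905 genes (6.73% of the 13438) and lower in 389 (2.89%). Library 2 was higher in 614 (4.57%) and lower in 1107 (8.24%). Library 3 was higher in 293 (2.18%) and lower in 801 (5.96%). These splits depend on level. With a minimum mean of 100, library 1 was higher in 66 genes and lower in 94, and library 2 higher in 261 and lower in 155. Library 3 was then higher in 32 and lower in 184. The larger side thus changed in libraries 1 and 2. Shares of all genes set beside the lists include the low genes. The splits also depend on the scaling. After quantile normalization library 1 was higher in 534 and lower in 760 genes, library 2 higher in 806 and lower in 785, and library 3 higher in 420 and lower in 677. On the deposited scale the median gene had a log2 difference of -0.01 in library 1, and nearer to 0 in the others.

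Library 1 stood apart by genes of skin epithelium. Krt5, a keratin of basal epidermal cells, had 1799.9 normalized counts in library 1, against 1.98 and 3.35 in libraries 2 and 3. Krt14, which pairs with it, had 844 in library 1, against 0.992 and 0.838 in libraries 2 and 3. Krt17, a keratin of hair follicles and wounded skin, had 745 in library 1, against 0 and 1.68 in libraries 2 and 3. In these 3 keratin genes the other libraries held a handful of reads or none. The desmosome gene Dsp, which anchors cells to their neighbours, had 551 in library 1, against 28.8 and 30.2 in libraries 2 and 3, and Col17a1, which anchors them to the basement membrane, had 425 in library 1, against 0 and 3.35 in libraries 2 and 3. A list of 16 keratin, desmosome and basement membrane genes, made after these values had been seen, was higher in library 1 by at least 1.5-fold in all 16 under the deposited, TMM and quantile scalings, so it describes the pattern and supports nothing. Its summed normalized counts were 6627 in library 1, against 123 and 101 in libraries 2 and 3, and its share of all counts in library 1 was 0.0356%. In all, 90 genes (0.67%) were at least 4-fold above both other libraries in library 1, against 0 genes in library 2 and 4 (0.0298%) in library 3.

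Other genes of that group of 90, named after their values were seen, included Trim29, Pkp1 and Cdh1, the gene of E-cadherin, with 184 in library 1, against 12.9 and 10.1 in libraries 2 and 3. The X inactivation RNA Xist was among them with 136 in library 1, against 0.992 and 1.68 in libraries 2 and 3. Genes of the Y chromosome were present in all 3 libraries: Ddx3y had 2040.1, 1831 and 2091 normalized counts, and Eif2s3y had 1756, 1598 and 1754. Kdm5d and Uty were likewise similar in the 3 libraries, with coefficients of variation of 9.24% and 5.58%. Whether the keratin genes and Xist in library 1 came from the same cells was not tested. Atf3, a stress-induced transcription factor, was also highest in library 1, with 445 in library 1, against 129 and 99.7 in libraries 2 and 3. For the effector markers Gzma, Cx3cr1, Tbx21 and Klrg1, library 1 lay between the other 2 libraries, and for Gzmb it lay just below library 3.

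Library 2 stood apart by genes of cell division. Mki67, the gene of the proliferation antigen Ki-67, had 11469 normalized counts in library 2, against 5679.7 and 5143 in libraries 1 and 3. Top2a, the topoisomerase that untangles replicated chromosomes, had 6818 in library 2, against 3243 and 2957 in libraries 1 and 3. The cyclin gene Ccnb2 had 1645 in library 2, against 710.3 and 662 in libraries 1 and 3. In these 3 genes library 2 lay far above the others, which lay close together. Of the 24 proliferation genes 18 were at least 1.5-fold higher in library 2, against 4.57% of all genes, and 0 were lower. Their median log2 difference was 1.08 on the deposited scale and kept its sign under TMM and quantile scaling. The members that were not 1.5-fold higher were H2afz, Ccnd2, Ccnd3, Cdkn1b, Pcna and Mcm2, and Cdkn1b, an inhibitor of the cell cycle, was lowest there, with 3819 in library 2, against 4594 and 4849.6 in libraries 1 and 3. Pclaf, a partner of the replication clamp, and Melk, a mitotic kinase, were among the genes farthest above the others in library 2, with log2 differences of 1.51 and 1.51.

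Some inhibitory receptor and memory precursor genes were also higher in library 2. Pdcd1, Tigit and Lag3 had log2 differences of 1.41, 1.02 and 0.73 over the mean of libraries 1 and 3. Tigit, an inhibitory receptor, had 825 normalized counts in library 2, against 356 and 456 in libraries 1 and 3. The list of inhibitory and costimulatory receptors had 5 of 20 members at least 1.5-fold higher and 1 lower in library 2, against 4.57% and 8.24% of all genes. The memory precursor list had 4 of 26 higher and 0 lower, set against the same shares.

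Several terminal effector genes were lower in library 2. S1pr5 had 5446 normalized counts in library 2, against 10564 and 10800.4 in libraries 1 and 3. Zeb2, a repressor that acts with T-bet in terminal effector cells, had 3168 in library 2, against 5845 and 5653 in libraries 1 and 3. Klre1, a lectin-like receptor, had 387 in library 2, against 873 and 1049 in libraries 1 and 3. In each of these genes libraries 1 and 3 lay together, well above library 2. Of the 26 terminal effector genes 4 were at least 1.5-fold lower in library 2, against 8.24% of all genes, with Cx3cr1 the other one, and 1, Anxa2, was higher. That share comes mostly from low genes: of the 1107 lower genes 155 had a mean of at least 100. The lowest mean among the terminal effector genes was 770. The median of the list hardly differed, with a log2 of 0.01. The nuclear long non-coding RNAs Malat1 and Neat1 were also lowest in library 2. Malat1 had 11604 in library 2, against 23044 and 18312 in libraries 1 and 3, and Neat1 had 2279.8 in library 2, against 5439 and 3475 in libraries 1 and 3.

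Markers of endothelial cells moved with library 2. On a list of 10 made after values had been seen, 9 were at least 1.5-fold higher there, against 4.57% of all genes. Because of how the list was made, this count describes the pattern and supports nothing. The exception was Pecam1 with 1356 in library 2, against 942 and 884 in libraries 1 and 3. The summed normalized counts were 2957 in library 2, against 1647 and 1569.6 in libraries 1 and 3. Fabp4, a lipid carrier of capillary endothelium, had 514 in library 2, against 194 and 202 in libraries 1 and 3, and Cdh5, the cadherin of endothelial junctions, had 292 in library 2, against 138 and 151 in libraries 1 and 3. The part of these cells in the other differences of library 2 was not tested.

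The Ly49 genes, which encode lectin-like receptors of NK cells and some CD8+ T cells, spread in another way. On a list of 13 made after values had been seen, all 7 with a row were at least 1.5-fold lower in library 2 and at least 1.5-fold higher in library 3, under each of the 3 scalings. Of all genes 8.24% and 2.18% met these conditions on the deposited scale. Because of how the list was made, its counts describe the pattern and support nothing. The Ly49 genes summed to 567, 167 and 955 normalized counts in libraries 1, 2 and 3. Klra3 had 238, 85.3 and 304 and the pseudogene Klra14-ps had 158, 20.8 and 271. Ly49 genes and pseudogenes share long near-identical stretches, so reads may be divided among them and the levels of single members are uncertain. The 7 are therefore not separate observations. Of the 7 NK cell markers with a row 5 were at least 1.5-fold lower in library 2, with a median log2 difference of -0.98, and 5 were at least 1.5-fold higher in library 3, with a median of 0.80. The Ly49 genes Klra4, Klra8 and Klra9 are on both lists. Of the other NK cell markers, Klrb1c, the gene of the antigen NK1.1, had 645, 393 and 903, Tyrobp, an adaptor of NK receptors, had 95.1, 71.4 and 122 and Fcer1g had 28.6, 29.7 and 47.8. The sum of the NK cell list, most of it Eomes, was 3775, 4729 and 4092 in libraries 1, 2 and 3. The part of NK cells in the other differences of libraries 2 and 3 was not tested.

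Library 3 had the higher values of genes induced within minutes of a stimulus or by heat. Of the 19 immediate-early and heat shock genes 16 were highest in library 3, against 29.4% of all genes, and 5 were at least 1.5-fold higher there, against 2.18%. The median log2 difference of the list was 0.46, with the same sign under TMM and quantile scaling. Hspa1b, a heat shock chaperone, had 1256 normalized counts in library 3, against 477 and 722 in libraries 1 and 2. Jun had 4285 in library 3, against 3176 and 2093 in libraries 1 and 2, and Dusp1, a phosphatase that ends MAP kinase signals, had 1721 in library 3, against 1255 and 930.2 in libraries 1 and 2. For Jun and Dusp1 library 2 was the lowest, as it was for 14 of the 19 members, against 38.8% of all genes. In library 2, 6 of the 19 were at least 1.5-fold lower, against 8.24% of all genes, and the median log2 difference was -0.44. Ccl3, a chemokine of recent activation, had 1079 in library 3, against 756 and 612 in libraries 1 and 2, the same order as Ccl4.

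The 4 genes at least 4-fold above both others in library 3 were Ccl8, Ighg3, Cd163 and Chil3, of which Cd163 and Chil3 are genes of macrophages. Cd163 had 46.9 normalized counts in library 3, against 6.13 and 3.97 in libraries 1 and 2. Beside them the monocyte and macrophage list summed to 2527 in library 3, against 2113 and 2232 in libraries 1 and 2. On the deposited scale 0 of its 13 members were 1.5-fold higher in library 3, with a median log2 difference of 0.26. The neutrophil list summed to 244 in library 3, against 95.1 and 148 in libraries 1 and 2. All 3 of its members with a mean of at least 10 were 1.5-fold higher there, against 2.18% of all genes. The part of macrophages and neutrophils in the other differences of library 3 was not tested.

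**Figure D5:**
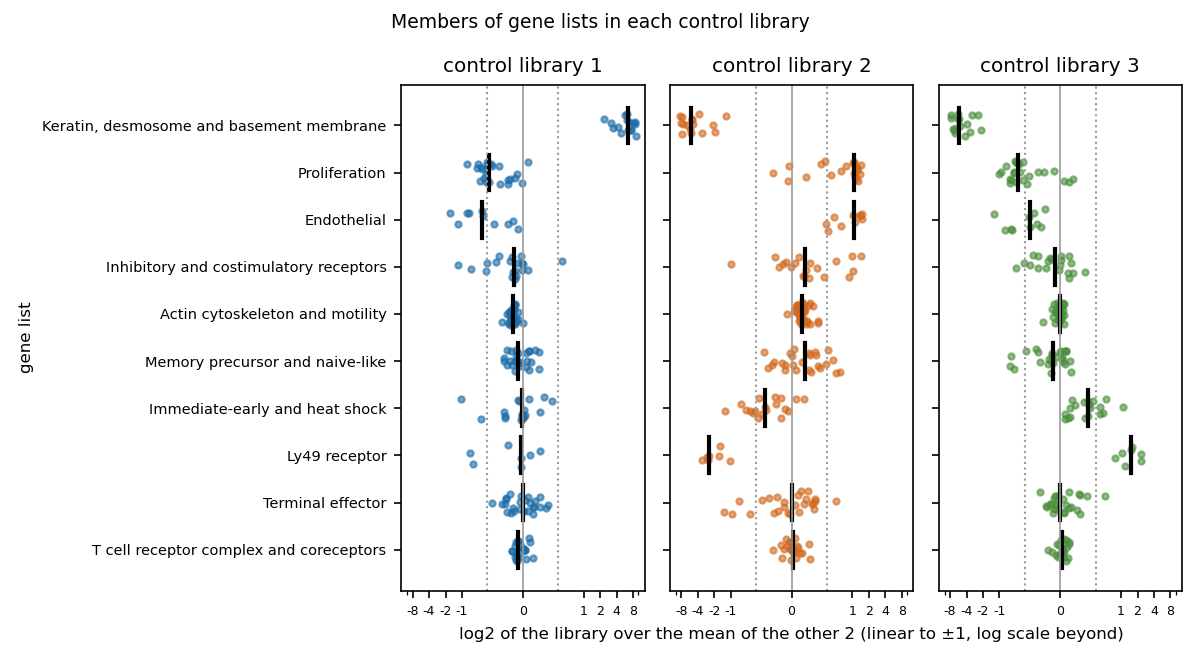
Log2 of each control library over the mean of the other 2 (linear to ±1, log scale beyond) for members of 10 gene lists, with list medians as black bars and 1.5-fold as dotted lines. Keratin, desmosome and basement membrane genes stand out in library 1, and proliferation and endothelial genes in library 2. Ly49 and immediate-early genes lie lower in library 2 and higher in library 3, while the T cell receptor complex lies near 0 in each.

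Gene length moved with the libraries too. Across 9126 protein-coding genes whose mean reached 100 the log2 difference of a library from the other 2 had a Spearman correlation with exon length of 0.19 in library 1, -0.17 in library 2 and 0.06 in library 3. The genes share their libraries and are not independent, so these are descriptions. With the genes divided into 5 equal groups by length, the median log2 difference in the shortest group was -0.08 in library 1 and 0.08 in library 2, and in the longest group it was 0.00 in library 1 and -0.03 in library 2. The ribosomal and respiratory chain genes, which are short, had medians of -0.13 and -0.15 in library 1 and of 0.13 and 0.20 in library 2. The part of length in these list medians was not tested.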

How the data were processed

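RNA sequencing of 3 control libraries was described. Total RNA came from a column kit and libraries from a commercial provider, per the labels' protocols. Per the submitters' processing notes, the genome build was mm10. The aligner, counting program, annotation and strandedness were not given in the sources used here. Values in the deposited table are a signal on a linear scale, named normalized counts, which the authors appear, from the values, to have made by dividing each library's gene counts by 1 factor. Divided by that step, 100% of values came out whole (tolerance 0.01), compared with 1.67% to 1.76% undivided, so reads could be recovered; for library 2 the step lies near 1 and this rests on the division alone. No column belonged to another sample.

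Ensembl IDs were matched to GENCODE M21 on GRCm38 (13653 matched, 22 not). Mean, SD, coefficient of variation, its Poisson counting value, rank, level per 1000 exon bases (all exons of a gene merged) and log2 of each library over the mean of the other 2 (pseudocount 1, which understates differences of low genes) were computed in Python 3.11.15. Genes with a mean of at least 10 in these libraries (13438) entered the measures of spread. The deposited table itself held no gene with a mean under 9.69 over all 6 libraries. With 1 group there was no test, so no p-value is given. TMM factors and a common dispersion came from edgeR 4.0.16 in R 4.3.3, as alternatives only. The computation of spread was tested on simulated data.

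The members and the 33 lists were chosen with earlier results of these data known. A further 3 lists (keratin, endothelial, Ly49), the 4-fold rule and the promoter motif were chosen after the values were seen. Named genes were the 5 markers, the 30 highest by count and 20 highest per kilobase, the 20 widest and 20 narrowest, the 10 farthest in each direction per library, variable genes of the T cell receptor with a mean of at least 10, and, in each list, up to 6 highest members and those with a 2-fold range; other genes named were chosen from the lists after their values were seen, except where the text says otherwise. A few of these genes are not reported here. Alternatives were other scalings, filters, folds, levels per kilobase, protein-coding genes only, the median of libraries, and each library left out.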

Additional observations from a re-analysis of the deposited data

How the results depend on the processing

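The share of counts in the 100 most abundant genes was 19.5% (of the mean of the 3 libraries), 31.2% of levels per kilobase, and 19.4% to 19.7% with a library left out. The median coefficient of variation was 7.25% with a minimum mean of 100 and 14.3% as the square root of edgeR's common dispersion, and ranged from 5.73% to 9.76% with a library left out. Genes with a 2-fold range numbered 349 and 210 with a minimum mean of 50 and 100, and 2963 at 1.5-fold; leaving out a library gave 507 to 893. Counts of genes 1.5-fold from the other libraries, with a minimum mean of 50, a minimum mean of 100, and at 2-fold, were 186, 66 and 329 higher and 133, 94 and 71 lower in library 1; 336, 261 and 215 higher and 328, 155 and 394 lower in library 2; and 65, 32 and 43 higher and 268, 184 and 264 lower in library 3. Quantile normalization moved the counts of library 1 to 534 higher and 760 lower. The counts with a higher minimum or a larger fold fall because fewer genes are tested or the fold is larger. With a minimum mean of 100 the larger side also changed, to lower in library 1 and to higher in library 2. For quantile normalization the cause of the change was not tested. With a library left out these counts need 2 others and give no value.

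Ranks of 43 named genes moved beyond the spread between libraries in 41 cases per kilobase, 2 with the median, 0 with TMM factors, and in 11 of 129 values with a library left out. The 33 list medians moved in 28 cases per kilobase, 1 with the median and 2 of 99 with a library left out. Of 108 medians of a list in a library, 9 changed sign with the scaling, the largest in size being -0.12 (log2) on the deposited scale, and no direction was read from these 9. No paired analysis was possible because only 1 group is described. Precision is limited by 3 libraries, by counting error in genes under about 100 normalized counts, and by sequence shared between copies.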

Other observations

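The replication-dependent histone genes, whose messages lack a poly(A) tail, were among the lowest of the lists. Of the 15 listed 8 had a row, with a median of 28.8 normalized counts, and their sums were 419, 554 and 628 in libraries 1, 2 and 3. Hist1h1c led with 252, 226 and 391. Hist1h4i had 165 in library 2, against 72.6 and 106 in libraries 1 and 3, and Hist1h2ae had 37.7 in library 2, against 11.2 and 6.7 in libraries 1 and 3.

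Among the long non-coding RNAs after Malat1, Gm26917 had 4216, 4488 and 4658 normalized counts and Gas5, the host of several small nucleolar RNAs, had 2750.4, 2421 and 2853. Miat, another long non-coding RNA, had 219 in library 2, against 823 and 895 in libraries 1 and 3. The potassium channel gene Kcnj8 had 208 in library 2, against 551 and 664 in libraries 1 and 3, and Notch3 had 1363 in library 3, against 1026 and 487 in libraries 1 and 2. Joining genes of the T cell receptor beta locus were led by Trbj1-1, which held 15.5% ± 1.2 (SD, n = 3) of the counts of the 14 listed Trbj genes. The 98.7% that Trbv12-1 held is a share over only 2 listed Trbv genes, so these shares are not compared.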
